A study of Homo sapiens with 9 samples.

Results

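MYC, the D-type cyclins (CCND1, CCND2, CCND3) and the CDK inhibitors (CDKN1A, CDKN1B, CDKN1C, CDKN2A, CDKN2B, CDKN2C) are the classical cell cycle genes linked to MEL-18 and its paralog BMI1. These 10 members were taken by gene symbol, and each was found in the 9 count files among 26364 genes. All libraries came from the human line MDA-MB-231, grown from a triple-negative breast cancer, with stable lentiviral expression of a construct, after 48 h of culture in medium with 10% serum. The groups were cells with the empty pLVX vector (vector), with wild-type MEL-18 (MEL-18 WT) and with MEL-18 T334A, a mutant described as unable to be phosphorylated at that residue, with 3 libraries each that the series calls biological replicates. Whether replicates came from separate infections is not stated, so each p-value covers the spread of these cultures only, and construct and transduced line cannot be told apart.

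MYC is a transcription factor that drives growth and ribosome production. D-type cyclins activate CDK4 and CDK6, which phosphorylate RB and release E2F factors to start S phase. CIP/KIP proteins (p21, p27 and p57, encoded by CDKN1A, CDKN1B and CDKN1C) bind cyclin-CDK complexes broadly, and INK4 proteins (p16, p15 and p18, encoded by CDKN2A, CDKN2B and CDKN2C) bind CDK4 and CDK6 alone. Polycomb complexes that hold BMI1 or MEL-18 are known for silencing the CDKN2A and CDKN2B locus, and MEL-18 for repressing MYC.

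Libraries held 31643722 to 37005302 counts, and 14738 genes passed a filter on low counts and were tested. PCGF2, which encodes MEL-18, stood at 22.7 ± 0.88 CPM (counts scaled to a common library size; SD, n = 3) with the vector, 1286 ± 6.55 with MEL-18 WT and 1420 ± 30.9 with MEL-18 T334A, where transgene and endogenous reads were not told apart. BMI1, between 3.61 and 4.02 CPM in the group means, passed no test between groups. The keratins KRT7, KRT8 and KRT18 and the mesenchymal filament VIM were at 193.5 CPM or more in every library, while CDH1, a defining epithelial marker, had 32 counts over 9 libraries and EPCAM was at 7.20 to 12.6 CPM. The mesenchymal cadherin CDH2 was at 0.268 to 0.736 CPM. Of the receptors that define a triple-negative tumour, ESR1 and PGR had 19 and 9 counts and ERBB2 was at 62.8 to 70.5 CPM. The leukocyte and endothelial markers examined stayed at or below 1.19 CPM in every library. In bulk RNA, fewer expressing cells and less RNA per cell cannot be told apart.

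Of the 10 members, 7 passed the filter, with CDKN1C the lowest at 3.60 CPM in its lowest library, and CCND2, CDKN2A and CDKN2B did not. With MEL-18 WT against the vector 7 members were called at an adjusted p below 0.05 (edgeR quasi-likelihood test, Benjamini-Hochberg), where 28.8% of all tested genes were called. MYC, CCND1, CDKN1A and CDKN1C rose and CCND3, CDKN1B and CDKN2C fell, against backgrounds of 14.4% called higher and 14.4% called lower. With MEL-18 T334A against the vector 3 members were called, against a background of 45.9%. CDKN1A and CDKN1C rose (background 23.4% higher) and CCND3 fell (22.5% lower). Between MEL-18 T334A and MEL-18 WT 3 members were called, against 40.9%, with CDKN1B and CDKN2C higher in MEL-18 T334A (21.0% higher) and CCND1 lower (20% lower). The 3 comparisons share libraries and are not independent of each other. None of the 7 tested members changed by more than 1.5-fold, which 4.38%, 6.86% and 4% of all tested genes did with a call in the 3 comparisons as ordered above. The largest change among the 7 was 1.47-fold, in CDKN1C. Groups did not overlap for 6 of the 7 with MEL-18 WT against the vector (background 42.7%), for 4 with MEL-18 T334A against the vector (51.5%) and for 3 between the constructs (48.7%). The median absolute change of the 7 tested members was 1.13-fold, 1.06-fold and 1.06-fold in the 3 comparisons in this order, beside 1.07-fold, 1.10-fold and 1.09-fold over all tested genes.

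The CIP/KIP inhibitors CDKN1A and CDKN1B moved in opposite directions with MEL-18 WT, so the bases before their start sites are shown for reference. They come from RefSeq on GRCh38.p14, each with the 250 bases before the annotated start, 5′ to 3′ on the plus strand. The counts were made on another build, hg19, and no count was read at these coordinates. CDKN1A lies at chr6:36678464-36678713 and CDKN1B at chr12:12717118-12717367. Capitals mark GC boxes, the letters GGGCGG on either strand, a known binding sequence of SP1 factors.
CDKN1A: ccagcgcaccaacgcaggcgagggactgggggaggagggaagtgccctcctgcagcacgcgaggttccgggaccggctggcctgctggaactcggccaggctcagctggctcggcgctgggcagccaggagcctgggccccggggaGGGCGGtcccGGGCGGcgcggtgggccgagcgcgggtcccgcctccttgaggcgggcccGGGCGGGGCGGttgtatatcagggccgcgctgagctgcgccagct
CDKN1B: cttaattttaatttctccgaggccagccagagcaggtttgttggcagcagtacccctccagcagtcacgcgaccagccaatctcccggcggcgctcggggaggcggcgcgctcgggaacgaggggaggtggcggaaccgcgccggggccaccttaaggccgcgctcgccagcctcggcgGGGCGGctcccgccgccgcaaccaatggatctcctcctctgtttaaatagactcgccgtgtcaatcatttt
The CDKN1A window held 4 GC boxes, of which the last pair overlap, and the CDKN1B window held 1. A GC box occurred in 42.6% of the 35116 promoter windows of this length. The E-box of MYC, the palindrome CACGTG, was in neither window and in 6.34% of all windows. Among the 6 members with windows in the table, an E-box was found in CDKN2C alone, before 2 of its 3 annotated starts. A match is a description of letters, not of binding.

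MYC RNA was 129.6, 127.0 and 128.2 CPM in the vector libraries 1, 2 and 3. It was 145.1, 139.6 and 135.5 CPM with MEL-18 WT, and 130.9, 127.0 and 140.2 CPM with MEL-18 T334A. The MEL-18 WT libraries all stood above the vector ones, while MEL-18 T334A overlapped both other groups, with its replicate 3 highest. The rise with MEL-18 WT was 0.13 ± 0.03 on the log2 scale (SE; 1.09-fold; edgeR adjusted p = 0.00569), and the call was lost without MEL-18 WT replicate 1 (adjusted p = 0.0596). MEL-18 T334A differed from the vector by 0.05 ± 0.03 (adjusted p = 0.257) and from MEL-18 WT by -0.08 ± 0.03 (adjusted p = 0.0684). The latter was called lower without MEL-18 T334A replicate 3, at -0.12 (adjusted p = 0.00237). The median log2 fold change over the 40 tested genes nearest to MYC on chromosome 8 was -0.015 with MEL-18 WT and -0.05 with MEL-18 T334A.

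**Figure D1:**
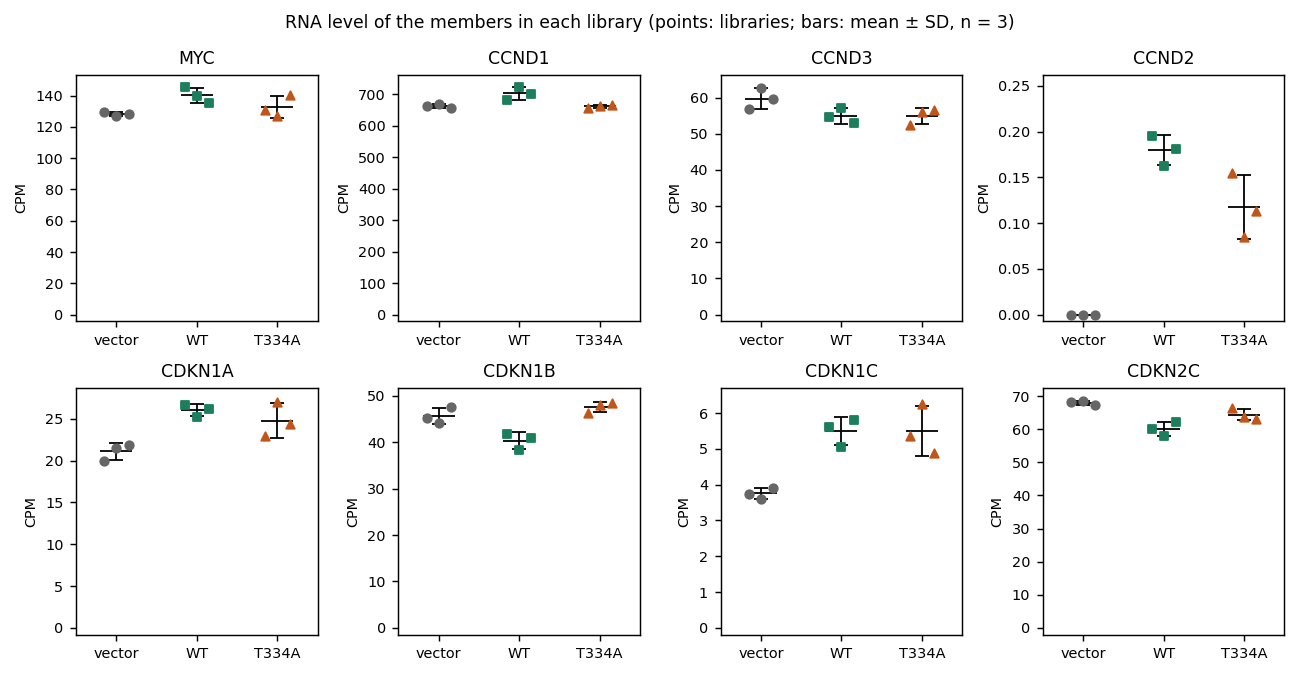
Level of 8 members in each library in CPM over TMM-scaled library sizes, by group (grey circles vector, green squares MEL-18 WT, orange triangles MEL-18 T334A); bars are mean ± SD, n = 3. CDKN1A and CDKN1C stand above the vector in both MEL-18 groups, CDKN1B is lowest in MEL-18 WT, and CCND2 is at 0 in the vector libraries.

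CCND1, the cyclin D1 gene, made up most of the D cyclin RNA. Per kilobase of exon, its mean share of the summed D cyclin level was 90.9% with the vector, 92.0% with MEL-18 WT and 91.5% with MEL-18 T334A, and CCND3 held nearly all of the rest. CCND1 was at 662.9, 670.0 and 657.8 CPM with the vector, at 682.7, 722.9 and 701.9 CPM with MEL-18 WT and at 656.3, 663.1 and 666.1 CPM with MEL-18 T334A. The MEL-18 WT libraries were above all 6 others. The size was small, 0.08 ± 0.03 log2 above the vector (1.06-fold; edgeR adjusted p = 0.0250), and -0.09 ± 0.03 in MEL-18 T334A against MEL-18 WT (adjusted p = 0.0136). The first call was lost when any of vector replicates 1 or 3 or MEL-18 WT replicates 2 or 3 was left out (adjusted p = 0.0539, 0.0776, 0.151 and 0.0659), and the second without MEL-18 WT replicate 2 or 3 (0.124 and 0.0516). The 40 tested genes around CCND1 on chromosome 11 were at a median of 0.13 with MEL-18 WT, where 17 were called higher and 1 lower, and CCND1 lay 0.05 below them. With MEL-18 T334A against the vector they were at 0.11, with 20 called higher and 0 lower, and CCND1 lay 0.12 below them. Between the constructs they were at 0.04. The part of these neighbours in the result was not tested.

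CCND3, cyclin D3, ranged from 56.8 to 62.7 CPM with the vector, 52.9 to 57.2 with MEL-18 WT and 52.5 to 56.7 with MEL-18 T334A. The vector and MEL-18 WT ranges overlapped, and the vector and MEL-18 T334A ranges did not. It fell by 0.12 on the log2 scale with each construct (SE 0.04 in both; edgeR adjusted p = 0.0261 with MEL-18 WT and 0.0196 with MEL-18 T334A). Without vector replicate 2, its highest library, the values were -0.08 (adjusted p = 0.218) and -0.08 (0.189) and no longer called. The calls were also lost with library totals in place of TMM scaling (0.0675 and 0.119) and without vector replicate 3 (0.0665 and 0.0526). The MEL-18 WT call was lost as well with DESeq2 (0.0543), without MEL-18 WT replicate 1 (0.0807) and without MEL-18 WT replicate 3 (0.165). The MEL-18 T334A call was lost without its replicate 1 (0.136). Genes around CCND3 on chromosome 6 had medians of 0.03 with MEL-18 WT and 0.04 with MEL-18 T334A.

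CCND2, cyclin D2, was the only member seen in the MEL-18 groups and not in the vector. Its counts were 0, 0 and 0 with the vector, 7, 6 and 6 with MEL-18 WT and 5, 3 and 4 with MEL-18 T334A. Every MEL-18 library had counts, but all lay under 0.2 CPM, and CCND2 held under 0.018% of the per-kilobase D cyclin level in each of them. Set against the limit of 3 counts over the vector group, which 0 counts allow, it was at least 5.93-fold higher with MEL-18 WT and at least 3.90-fold higher with MEL-18 T334A, taking the 19 and 12 counts as they are. With the counting error of both groups, the exact 95% lower limits of these ratios were 4.37 and 2.71. MEL-18 T334A over MEL-18 WT was 0.657 (exact 95% interval 0.291 to 1.43). Limits and intervals cover counting error alone. In a fit with no filter on low counts, CCND2 was called against the vector for both constructs (edgeR adjusted p = 2.01e-04 and 0.00248) and not between them (0.565). The MEL-18 libraries had a count in more genes in general. These were 18956 to 18973 genes with the vector, 19259 to 19636 with MEL-18 WT and 18989 to 20323 with MEL-18 T334A. The shares of all genes with the CCND2 pattern, or called without the filter, are not given here, so the pattern cannot be called particular to CCND2.

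CDKN1A, encoding p21, rose in both MEL-18 groups. It was at 19.9, 21.5 and 21.9 CPM with the vector, at 26.6, 25.2 and 26.2 CPM with MEL-18 WT and at 22.9, 27.0 and 24.4 CPM with MEL-18 T334A. Every MEL-18 library was above every vector library, and the MEL-18 groups overlapped each other. The rise was 0.30 ± 0.05 (1.23-fold; edgeR adjusted p = 1.04e-04) and 0.23 ± 0.06 (1.18-fold; 9.87e-04), and both calls held in 14 of 14 alternatives. The median of its 40 neighbours on chromosome 6 was 0.0084 with MEL-18 WT, with 5 called higher and 1 lower. With MEL-18 T334A that median was 0.18, with 22 called higher and 1 lower, so CDKN1A lay 0.29 above its surroundings in the first comparison and 0.06 in the second. The part of these neighbours in the result was not tested.

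CDKN1C, encoding p57, an imprinted gene, showed the largest relative change of the tested members. Its levels were low, at 3.75, 3.60 and 3.92 CPM with the vector, 5.62, 5.05 and 5.81 CPM with MEL-18 WT and 5.37, 6.25 and 4.88 CPM with MEL-18 T334A. All 6 MEL-18 libraries exceeded the vector ones. The log2 fold changes were 0.55 ± 0.11 (1.46-fold) and 0.55 ± 0.11 (1.47-fold), with edgeR adjusted p = 2.41e-04 and 1.22e-04, called in 14 of 14 alternatives each. Neighbours on chromosome 11 were at -0.0015 and -0.05. The difference between the constructs was 0.0048 ± 0.10 (adjusted p = 0.974).

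CDKN1B, encoding p27, separated the constructs. It was at 45.2, 44.2 and 47.5 CPM with the vector, at 41.8, 38.3 and 40.9 CPM with MEL-18 WT and at 46.3, 48.0 and 48.5 CPM with MEL-18 T334A. The MEL-18 WT libraries lay below all 6 others, and vector and MEL-18 T334A overlapped. It fell by 0.18 with MEL-18 WT (SE 0.04; edgeR adjusted p = 0.00138) and was higher in MEL-18 T334A than in MEL-18 WT by 0.24 ± 0.04 (1.18-fold; adjusted p = 2.74e-05), with both calls kept in 14 of 14 alternatives. MEL-18 T334A against the vector was 0.06 ± 0.04 (adjusted p = 0.217). Between the MEL-18 groups the median of the neighbours on chromosome 12 was 0.11, with 13 of 40 called higher and 1 lower, and CDKN1B lay 0.13 above it. With MEL-18 WT against the vector that median was -0.04. The part of these neighbours was not tested. Per kilobase, CDKN1B was the largest of the CIP/KIP RNAs in every library. Its share of their sum was 61.5 to 63.2% with the vector, 53.2 to 53.8% with MEL-18 WT and 56.4 to 59.8% with MEL-18 T334A, which do not overlap. The summed level was 27.5 ± 0.95, 28.4 ± 1.16 and 30.6 ± 1.37 CPM per kilobase (SD, n = 3) in the groups as ordered before, so vector and MEL-18 WT sums differed by less than 1 SD.

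CDKN2C, encoding p18, was in effect the only one of the INK4 members with RNA. It was at 68.1, 68.5 and 67.4 CPM with the vector, at 60.2, 57.9 and 62.2 CPM with MEL-18 WT and at 66.4, 63.8 and 63.1 CPM with MEL-18 T334A. The 3 groups did not overlap, in the order MEL-18 WT, MEL-18 T334A, vector. It fell by 0.18 with MEL-18 WT (SE 0.03; edgeR adjusted p = 2.32e-04; 14 of 14 alternatives). MEL-18 T334A was at -0.08 ± 0.03 against the vector (adjusted p = 0.0666) and 0.10 ± 0.03 above MEL-18 WT (adjusted p = 0.0211). The last call was lost without MEL-18 WT replicate 1, without MEL-18 WT replicate 2 and without MEL-18 T334A replicate 1 (0.0532, 0.131 and 0.0929). Leaving out the latter library, MEL-18 T334A was called below the vector (0.0435). Genes around CDKN2C on chromosome 1 had medians of 0.02 with MEL-18 WT and -0.0080 between the constructs. CDKN2D, the remaining INK4 gene (p19), also fell with MEL-18 WT. It went from 28.2 ± 1.24 CPM with the vector to 24.8 ± 0.44 with MEL-18 WT (-0.18 ± 0.05, adjusted p = 0.00765) and stood at 29.1 ± 2.15 CPM with MEL-18 T334A (0.23 ± 0.05 above MEL-18 WT, adjusted p = 6.02e-04).

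**Figure D2:**
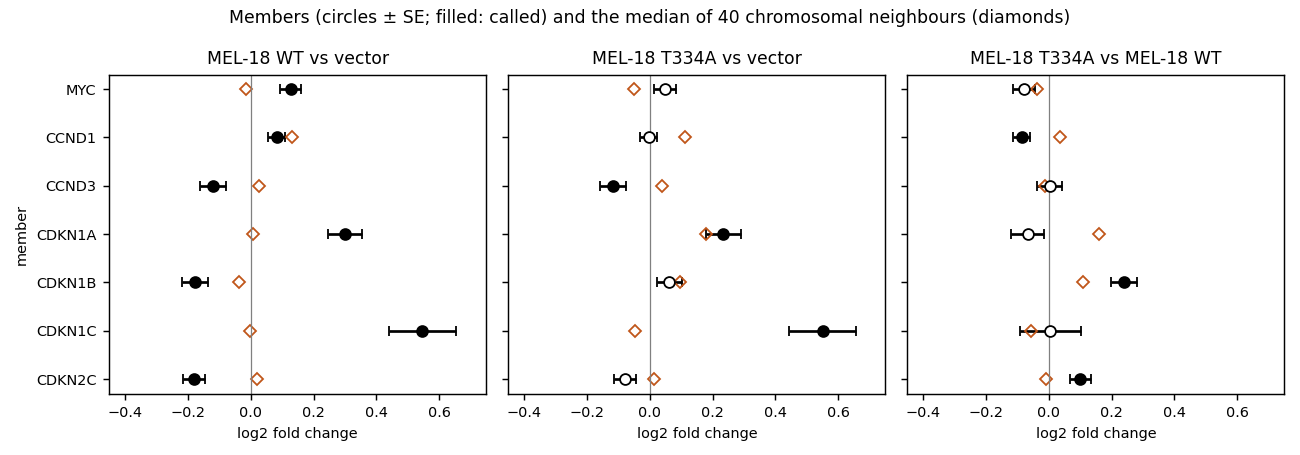
Log2 fold change of the 7 tested members in each comparison (circles, bars ± SE; filled where called) beside the median of the 40 nearest tested genes on the same chromosome (diamonds). CDKN1C stands far from its neighbours in both comparisons with the vector, and CDKN1A in MEL-18 T334A lies close to its neighbours' median of 0.18.

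CDKN2A and CDKN2B, which lie on chromosome 9 in a segment known to be deleted in this line, were at the limit of detection. CDKN2A had 1 count in the 3 vector libraries, 2 with MEL-18 WT and 2 with MEL-18 T334A, and CDKN2B had 0, 1 and 0. A count of 0 over a group allows up to 0.0303 CPM with the vector and 0.0295 with MEL-18 T334A. MTAP, the next gene, had 0 counts in all 9 libraries, CDKN2B-AS1 had 3 and CDKN2A-AS1 had 1. The nearest tested genes on either side were FOCAD, with 1462 counts over 9 libraries, and TUSC1, with 3754. Of the 33 genes of the files between them, 13 had 0 counts and the highest, FOCAD-AS1, had 27. KLHL9, in this gap, had 1 count. Interferon genes, DMRTA1 and ELAVL2 there are also silent in many cells with an intact locus, so the RNA does not mark the edges of the deletion. Of 12 tested genes from a list around the locus, 2 rose and 0 fell with MEL-18 WT, where 14.4% of all genes rose. The 2 were 0 without MEL-18 WT replicate 1 or 3 and with DESeq2, and 1 without vector replicate 2. With MEL-18 T334A 0 of the 12 rose and 3 fell, where 22.5% of all genes fell. The 40 tested genes nearest to the locus reached further, with a median of 0.03 with MEL-18 WT (7 called higher, 3 lower). Their median was -0.16 with MEL-18 T334A against the vector (2 higher, 21 lower) and -0.20 against MEL-18 WT (1 higher, 25 lower). Over the nearest 20 alone these medians were -0.06 and -0.08. No response of CDKN2A or CDKN2B to either construct could be measured.

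**Figure D3:**
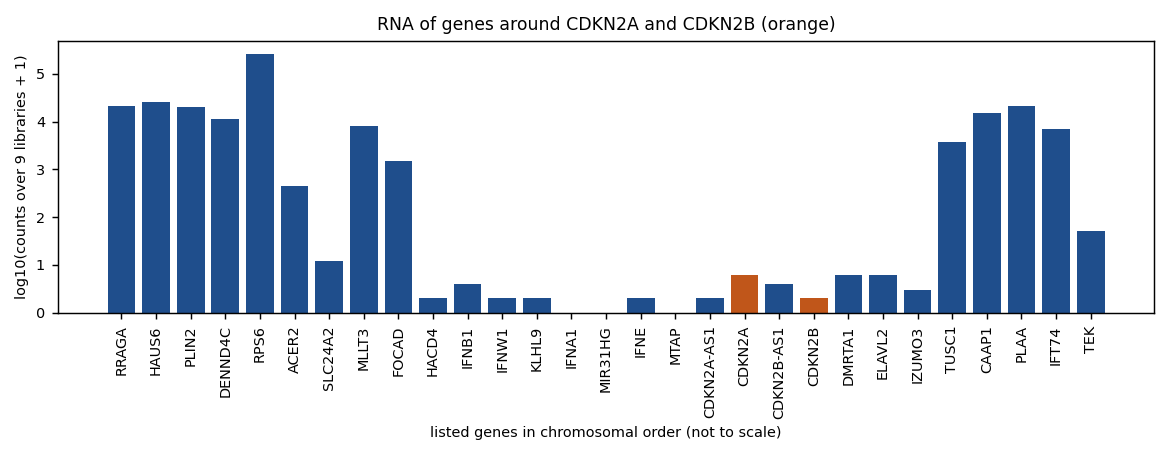
Counts summed over 9 libraries, as log10(counts + 1), of listed genes in their order along chromosome 9, with CDKN2A and CDKN2B in orange. From HACD4 to IZUMO3 no listed gene has more than 5 counts, while FOCAD and TUSC1 on either side have 1462 and 3754.

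Genes that MYC is known to activate, mostly of ribosome production, moved differently with the constructs. Of 44, 6 rose and 0 fell with MEL-18 WT (median log2 fold change 0.03, and -0.0017 over all tested genes). The 6 are a share like the 14.4% of all tested genes called higher there, while 14.4% of all were called lower. With MEL-18 T334A against the vector 1 rose and 23 fell (median -0.11, and -0.0022 over all tested genes). Over all tested genes 23.4% rose and 22.5% fell in that comparison. In MEL-18 T334A against MEL-18 WT 1 was higher and 30 were lower (median -0.16, and -0.0033 over all), where 20% of all genes were called lower. CAD, an enzyme of pyrimidine synthesis, stood at 230.8 ± 6.93 CPM with the vector, 227 ± 9.29 with MEL-18 WT and 184 ± 6.55 with MEL-18 T334A (-0.30 ± 0.03 between the constructs; edgeR adjusted p = 5.75e-08). The ribosome assembly factor WDR43 stood at 198 ± 7.89, 186 ± 2.84 and 145 ± 10.7 CPM (-0.36 ± 0.04; 3.15e-08). TERT, the telomerase gene, rose from 5.34 ± 0.52 to 6.86 ± 0.49 CPM with MEL-18 WT (0.36 ± 0.09; adjusted p = 0.00349). MYC RNA itself was not called lower in MEL-18 T334A than with the vector or with MEL-18 WT. The 44 genes lie on 17 chromosomes, and their median distance from their own neighbours' median was -0.12 in MEL-18 T334A against the vector and -0.13 against MEL-18 WT (40 and 43 of 44 below their neighbours), a comparison added after the data were seen. The 23 that fell became 14 without replicate 1 and 14 without replicate 2 of MEL-18 T334A, and 15 without vector replicate 1. They became 34 without MEL-18 T334A replicate 3 and 28 without vector replicate 3. The 30 lower in MEL-18 T334A than in MEL-18 WT ranged from 22 to 36 over 14 alternatives. The 6 that rose with MEL-18 WT became 3 without vector replicate 3 and 3 without MEL-18 WT replicate 2.

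**Figure D4:**
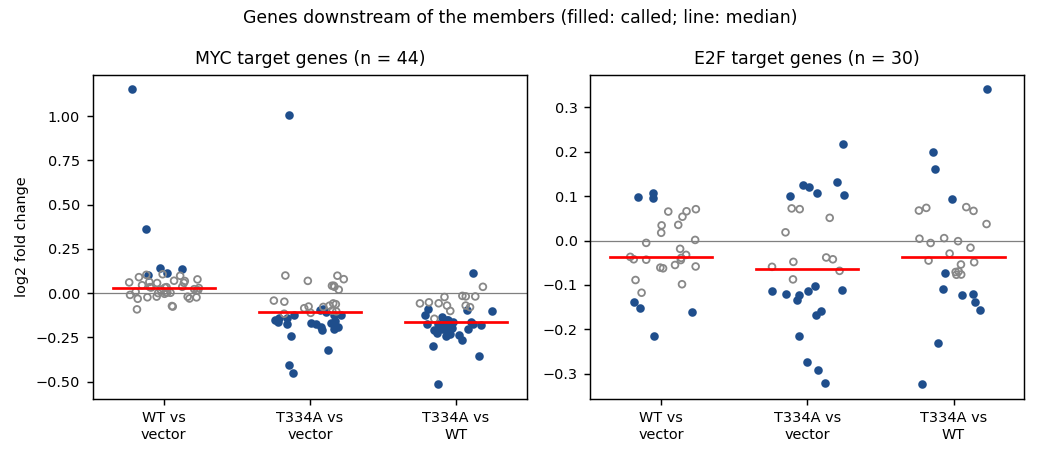
Log2 fold changes of the tested MYC and E2F target genes in each comparison (filled where called, red line the median; vertical scales differ). MYC targets center at 0.03, -0.11 and -0.16 in the 3 comparisons.

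Among the partners and rivals of MYC, MXD1, which competes with MYC for MAX, fell with both constructs, from 28.3 ± 1.12 CPM with the vector to 22.8 ± 0.96 with MEL-18 WT (-0.31 ± 0.05; edgeR adjusted p = 1.47e-05) and 16.4 ± 0.86 with MEL-18 T334A (-0.79 ± 0.05; 2.05e-12). It was lower in MEL-18 T334A than in MEL-18 WT (-0.48 ± 0.05; 6.18e-08). MGA, another MAX partner, rose with MEL-18 WT by 0.22 ± 0.04. MXI1 and MXD4, also among these partners and rivals, went the other way from MXD1 with MEL-18 T334A. They rose against the vector (0.21 ± 0.05 and 0.18 ± 0.06, edgeR adjusted p = 0.00115 and 0.00797). Neither was called with MEL-18 WT against the vector. In this list of 12 tested genes 3 rose and 1 fell with MEL-18 WT, and 4 rose and 2 fell with MEL-18 T334A (medians 0.04 and 0.01). Over all tested genes 14.4% rose and 14.4% fell with MEL-18 WT, and 23.4% rose and 22.5% fell with MEL-18 T334A. The 3 were 1 without vector replicate 3 or MEL-18 WT replicate 2, and the 4 were 2 without MEL-18 T334A replicate 2. The 2 that fell were 1 when vector replicate 2 or 3, or MEL-18 T334A replicate 1 or 2, was left out. They were also 1 with library totals, DESeq2, a replicate term or the compared groups alone, and 3 without vector replicate 1 or MEL-18 T334A replicate 3.

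Of the genes that control the turnover of the members, 3 of 22 rose and 5 fell with MEL-18 WT, and 5 rose and 8 fell with MEL-18 T334A (medians -0.02 and -0.02). Over all tested genes the shares were 14.4% higher and 14.4% lower with MEL-18 WT, and 23.4% and 22.5% with MEL-18 T334A. CKS1B, the cofactor of SKP2 in the destruction of p27, fell from 117 ± 6.82 CPM to 92.0 ± 3.71 with MEL-18 WT (-0.35 ± 0.04; edgeR adjusted p = 9.07e-08) and 101 ± 4.01 with MEL-18 T334A (-0.22 ± 0.04; 3.75e-05). USP36, a deubiquitinase that stabilises MYC, was higher with MEL-18 WT (71.6 ± 1.73 against 61.6 ± 0.82 CPM; 0.22 ± 0.03) and lower in MEL-18 T334A (57.3 ± 0.28 CPM; -0.32 ± 0.03 against MEL-18 WT; 1.17e-08). GSK3B and FBXW7 fell with MEL-18 T334A against the vector (-0.27 ± 0.03 and -0.21 ± 0.05, edgeR adjusted p = 1.80e-07 and 4.99e-04). PIM1 was higher in MEL-18 T334A than in MEL-18 WT (0.23 ± 0.05, 3.22e-04). In that comparison 6 of the 22 were higher and 7 lower, beside 21.0% and 20% over all tested genes. The 5 that fell with MEL-18 WT were 3 without its replicate 1 or 3, and the 5 that rose with MEL-18 T334A were 3 without vector replicate 2.

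In a list of 17 CDKs, cyclins and their regulators, 0 rose and 4 fell with MEL-18 WT (median -0.03). Over all tested genes 14.4% were called higher and 14.4% lower. The list also holds the INK4 gene CDKN2D, among the 4, and CDKN3, among the 3 that rose with MEL-18 T334A against the vector. CDK6 fell from 180 ± 1.75 to 165 ± 3.16 CPM with MEL-18 WT (-0.12 ± 0.03; edgeR adjusted p = 0.00215) and to 162 ± 5.82 CPM with MEL-18 T334A (-0.16 ± 0.03; 9.82e-05). With MEL-18 T334A 3 of the 17 rose and 7 fell (median -0.07), where 23.4% of all genes were called higher and 22.5% lower, with CCNA1 at 0.46 ± 0.08 and CCNE2 at -0.23 ± 0.05. RB1 fell by 0.15 with MEL-18 WT (edgeR adjusted p = 1.43e-04) and by 0.18 with MEL-18 T334A (8.52e-06). TFDP2, a partner of E2F factors, fell by 0.22 and 0.24. In their list of 18, 1 rose and 2 fell with MEL-18 WT (median -0.02), and 4 rose and 7 fell with MEL-18 T334A (median 0.03). The 1 that rose was not called with DESeq2 or with a replicate term. Nor was it called without vector replicate 3, MEL-18 WT replicate 1 or MEL-18 WT replicate 2. Of 30 E2F target genes, 3 rose and 4 fell with MEL-18 WT (median -0.04). With MEL-18 T334A 7 rose, a share like the 23.4% over all genes, and 13 fell, beside 22.5% over all genes (median -0.06), with the ribonucleotide reductase subunit RRM2 at -0.29 ± 0.04. The 3 that rose with MEL-18 WT were 0 without vector replicate 2 or MEL-18 WT replicate 3 and 1 without MEL-18 WT replicate 1.

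Of 13 upstream regulators of CDK inhibitors, 0 rose and 3 fell with MEL-18 WT, and 4 rose and 2 fell with MEL-18 T334A (medians 0.0052 and 0.02). The shares of all tested genes called were 14.4% higher and 14.4% lower with the former, and 23.4% and 22.5% with the latter. KLF4, an activator of CDKN1A, fell with both (-0.30 ± 0.04 and -0.35 ± 0.04). Larger changes with MEL-18 T334A against the vector were a fall of EGR1 and a rise of SMAD7. They were -0.69 ± 0.05 and 0.69 ± 0.10 (edgeR adjusted p = 3.04e-12 and 4.94e-06).

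The genes nearest in pattern to called members were those with the smallest root mean square difference in centred log2 CPM over the 9 libraries, which favours genes of like size of change. For CDKN1A they were SRC, CPT1A and TMOD2, at 0.04, 0.04 and 0.05 where CDKN1A itself varied by 0.15. For CDKN1C they were RGAG4, COL1A1 and GUCY1A2, at 0.06, 0.08 and 0.08 beside 0.27. For CDKN1B they were SENP7, C7orf73 and MIR600HG, each at 0.03 beside 0.11. ROCK2 was nearest to CDKN2C at 0.03 beside 0.08, RPL3 to CCND1 at 0.01 beside 0.04 and STAM to MYC at 0.03 beside 0.07.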

How the data were processed

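Each deposited file gives raw counts of reads, as whole numbers, for gene symbols. Per the submitters' processing notes the authors used CASAVA 1.8, STAR 2.5.3a and featureCounts of Subread 1.5.3 on hg19; the annotation and strand setting: not given in the sources used here, so overlapping and antisense genes are uncertain. Libraries were poly(A)-selected from 400 ng RNA, per the labels' protocols. Genes passing filterByExpr were tested with edgeR 4.0.16 (TMM factors 0.979 to 1.02, quasi-likelihood F test, two-sided, all 9 libraries, group means) and adjusted by Benjamini-Hochberg over 14738 genes. CPM values use TMM-scaled library sizes. SEs were taken as |log2 fold change| / √F. Levels per kilobase use the union of exons in GENCODE basic models, which may differ from the authors' models. Gene order came from RefSeq. Named genes were the 10 members, PCGF2, BMI1, up to 3 called genes of at least 2 CPM with the largest change per list and comparison, and the 3 genes nearest in pattern; the text gives part of these, and 1 gene list and the genes nearest to CCND3 are not reported here. KLHL9 and the genes between FOCAD and TUSC1 lie outside this rule and were chosen after their values were seen. The members and lists were chosen with earlier results of these data known. Replicate pairs differed by more than sampling noise (chi-square 1.52 to 4.17 per degree of freedom). On simulated counts the fit recovered 68%, 64% and 78% of genes changed 1.2-fold in MEL-18 WT against vector, MEL-18 T334A against vector and MEL-18 T334A against MEL-18 WT. Of 186, 182 and 194 calls there, 10, 13 and 15 were false. Each simulated size was given to 50 of 14738 genes, far fewer changes than were called in the data, so recovery in the data may differ. Changes below 1.2-fold were not simulated. Alternatives were RLE factors, library totals, DESeq2 1.42.0, limma 3.58.1 voom, 2 other filters, a replicate term, the compared groups alone and each library left out.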

Additional observations from a re-analysis of the deposited data

Results flagged for a closer look

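The effects of the constructs against the shared vector libraries differed, by the direct test of MEL-18 T334A against MEL-18 WT (edgeR), in 3 members. CDKN1B differed by 0.24 on the log2 scale, CDKN2C by 0.10 and CCND1 by -0.086 (MEL-18 T334A minus MEL-18 WT). The share of all tested genes called in that comparison was 40.9%.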

How the results depend on the processing

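Both calls of CDKN1A and of CDKN1C against the vector, the calls of CDKN1B with MEL-18 WT and between the constructs, and the call of CDKN2C with MEL-18 WT held in each of 14 alternatives. Calls of MYC, CCND1, CCND3 and of CDKN2C between the constructs were lost in at least 1, as given with them. With library totals alone, MYC (0.09, adjusted p = 0.0352) and CDKN1B (0.10, adjusted p = 0.0489) were called higher in MEL-18 T334A than with the vector, 5 MYC targets rose and 17 fell there, and 60.1%, 64.0% and 58.4% of all calls in the 3 comparisons were higher, against 50.1%, 51.1% and 51.2% with TMM. Without the filter, MYC was called lower in MEL-18 T334A than in MEL-18 WT (edgeR adjusted p = 0.0484). Leaving out 1 library each, 1 (without MEL-18 WT replicate 2) to 4 members were called between the constructs. Same-numbered libraries did not deviate together (correlations -0.0791 to 0.0137), and libraries of other numbers were at -0.0732 to 0.101. The numbers thus gave no sign of pairing, which does not show that the libraries are unpaired. The replicate block gave 3963, 6496 and 5757 called genes (4242, 6765 and 6034 without it) and the same number of called members, 7, 3 and 3. Signs changed in values near 0 that passed no test. For CCND1 in MEL-18 T334A against the vector, they became 0.0347 with library totals, 0.0022 with a minimum of 1 CPM and -0.0055 to 0.0076 with 1 library left out. Between the constructs, BMI1 was -0.0020 with limma voom, -0.0041 without a filter and -0.0719 to 0.0634 with 1 library left out, CCND3 was -0.0015 without a filter and -0.0211 to 0.0368 with 1 left out, and CDKN1C -0.0982 to 0.0877. Where an arm kept 2 libraries, the spread was shared over groups. The causes were not tested. Low counts limit CCND2, CDKN2A and CDKN2B, which stayed under 8 counts in each library. CDKN2A and CDKN2B also lie in the segment known to be deleted in this line.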
